A study of Mus musculus with 4 samples.

Results

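The hematopoietic niche factors described here are 7 genes, Cxcl12, Kitl, Il7, Il15, Vcam1, Fgf7 and Gas6, chosen by symbol among the 28006 features of the count matrices, and all 7 were found. Niche factors are secreted or surface proteins by which bone marrow stromal and endothelial cells hold, feed and instruct blood stem and progenitor cells. Reticular stromal cells lying on sinusoidal vessels are known as the main source of CXCL12, which retains stem cells and lymphoid progenitors through CXCR4, and of stem cell factor (encoded by Kitl), which signals through KIT. IL-7 serves B-lymphoid progenitors, IL-15 serves natural killer cells, VCAM-1 is an adhesion ligand of the integrin α4β1, FGF7 acts on epithelial cells through a splice form of FGFR2, and GAS6 is a vitamin K-dependent ligand of the receptors TYRO3, AXL and MERTK.

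The measurements were single cell RNA-seq counts of tdTomato+ cells sorted from the femurs of mice with the genotype Cxcl12-iCreER; R26R(tdTomato/+), given tamoxifen 7 days before marrow ablation and analysed 7 days after it. In the study's description, the right femur was mechanically ablated (ABL) and the untreated left femur was the contralateral control (CONT). Each of 2 biological replicates gave 1 CONT and 1 ABL library. Replicate 1 was pooled from several mice and used Chromium v2 chemistry while replicate 2 used v3, so replicate and chemistry cannot be told apart. Xist, a transcript of female cells, was found in most CONT but almost no ABL mesenchymal cells of replicate 2. In that replicate sex and condition cannot be told apart, and the libraries do not look like paired femurs of the same mice. The comparison of ABL with CONT within a cell class addresses how gene expression in the marked stroma differed after the surgery, with sex as a further difference in replicate 2. Whether the mix of sexes also differed between the conditions of replicate 1 was not tested.

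All 4 libraries carried the recombinase transgene, a bacterial artificial chromosome in which flanking sequence of Cxcl12 itself drives iCreER. Cells were therefore marked by a Cxcl12-driven recombinase before the injury, and a high level of Cxcl12 in the sorted mesenchymal cells is part of how they were chosen. By this design, marked mesenchymal ABL cells were marked before the surgery or descend from cells that were. The lines of descent within them were not read. With 2 libraries per condition, the main fits took the replicate as a block. Their p-values measure the spread left after the replicate difference is removed, an estimate that borrows from the other genes.

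The libraries held between 22889380 and 44784072 unique molecular identifiers (UMIs), and between 1459 and 3433 barcodes per library were taken as cells, with a median of 5714 to 12896 UMIs per cell. Pairs of libraries shared between 0 and 5 cell barcodes. Mesenchymal cells numbered 1315 (CONT) and 681 (ABL) for replicate 1, and 2053 and 1808 for replicate 2. Classes were named from fixed marker lists that hold none of the 7 genes, so each name stands for cells like that type. The reticular class (CONT 1162 and ABL 407 cells in replicate 1, 1972 and 345 in replicate 2) held its defining markers in all 4 libraries, with none of 8 at 0 and Adipoq between 1892 and 2234 CPM (a gene's share of the class's UMIs, scaled to a total of 1000000). Endothelial cells numbered 88 (CONT) and 11 (ABL) in replicate 1 and 25 and 116 in replicate 2. Lists of 4 values keep that order, replicate 1 before replicate 2 and CONT before ABL within each. Hematopoietic cells numbered 2030, 755, 326 and 613. Their tdTomato was at 78.3, 102, 118 and 325 CPM, against 2102, 1617, 1103 and 1115 CPM in reticular cells. The study describes its blood cell clusters as lacking detectable tdTomato, and these cells are not taken here as marked cells.

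In reticular cells of the ablated marrow, Fgf7 was the only niche factor of the 7 that passed the test, with a log2 fold change of −1.23 against CONT. Vcam1, Kitl, Il7 and Cxcl12 were lower in ABL in both replicates and Gas6 was higher in both, without passing. Il15 went in opposite directions in the 2 replicates. Counts summed per library were tested with edgeR's quasi-likelihood test with the replicate as a block, and 395 of 11405 genes (3.46%) passed an adjusted p of 0.05, 208 of them higher (1.82%) and 187 lower (1.64%) in ABL, against 1 of the 7 niche factors, which was lower. Scaling by library totals in place of TMM gave 384 higher and 196 lower. The median log2 fold change was −0.59 over the 7 genes and −0.00487 over all genes tested, and 6 of the 7 had a value below 0, against 5758 of all genes.

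**Figure D1:**
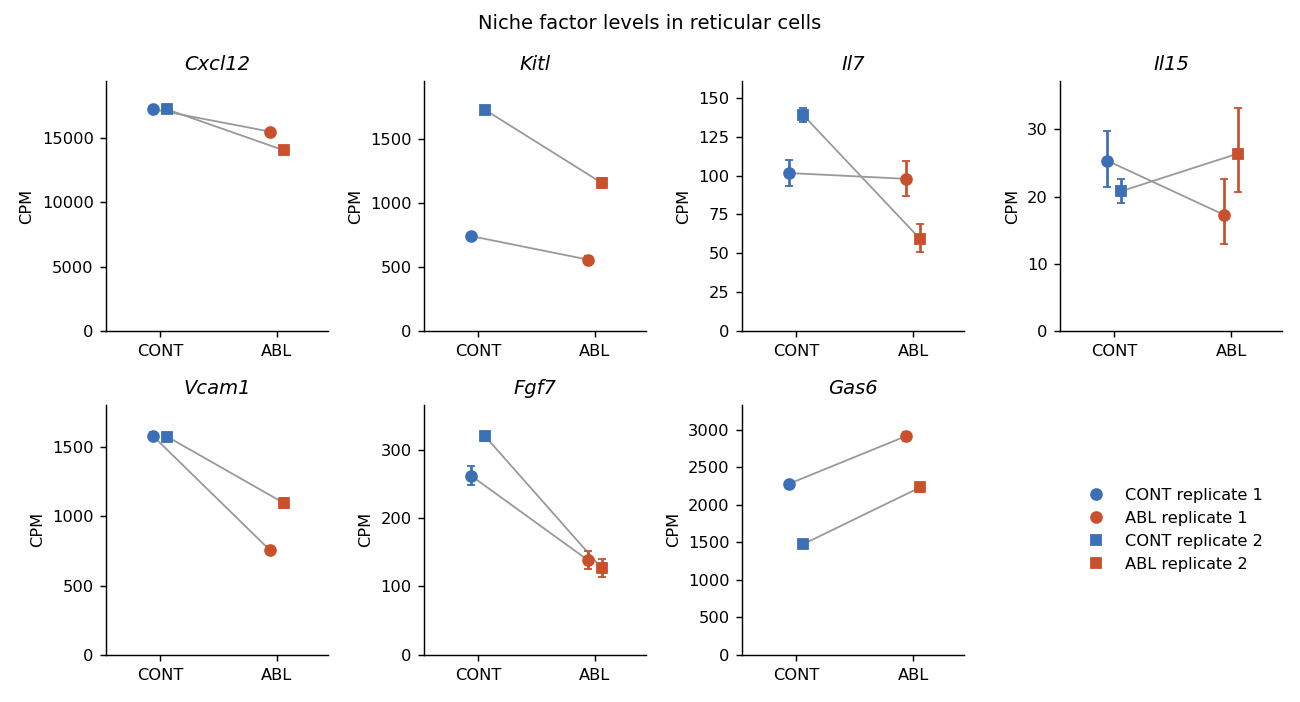
Level of each niche factor in reticular cells in CPM (vertical axes, all starting at 0), with CONT and ABL on the horizontal axes, 1 point per library, exact 95% Poisson intervals and a line joining the libraries of a replicate. Fgf7 fell from 262 and 319 CPM in CONT to 138 and 126 CPM in ABL, while Kitl differed more between replicates than between conditions.

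The chemokine Cxcl12 (chromosome 6, 117168535 to 117181367, plus strand, GRCm38) had the most UMIs of the 7 in reticular cells, at 17221 and 17207 CPM in the CONT libraries of replicates 1 and 2 and at 15482 and 14031 CPM in the matching ABL libraries. Both ABL libraries lay below both CONT libraries, by a small margin beside the level. The fitted log2 fold change, after TMM scaling, was −0.32 (SE 0.56, adjusted p = 0.876 by edgeR), with a 95% interval from −1.46 to 0.82. A difference of this size was not detectable with 2 libraries per condition. Nearly every reticular cell held a Cxcl12 UMI after thinning to 2000 UMIs per cell, with 100% of cells in both CONT libraries, 99.8% in ABL replicate 1 and 96.8% in ABL replicate 2 (unthinned, 98.0% to 100%). Of thinned hematopoietic cells, 5.55% to 50.1% held one.

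Kitl, which encodes stem cell factor (chromosome 10, 100015630 to 100100416, plus strand), was measured in replicate 1 at 741 CPM (CONT) against 558 (ABL), and in replicate 2 at 1725 against 1154 CPM. ABL was lower within each replicate, but CONT replicate 1 lay below ABL replicate 2, so the conditions overlapped. The log2 fold change was −0.59 (SE 0.40, adjusted p = 0.574). The share of reticular cells with a Kitl UMI, thinned to 2000 UMIs, was 73.9% and 62.9% in replicate 1 and 92.4% and 76.5% in replicate 2 (unthinned, 92.9%, 88.2%, 99.5% and 94.2%), against 1.14% to 6.44% of thinned hematopoietic cells.

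Among the lymphoid cytokines, Il7 (chromosome 3, 7569994 to 7613760, minus strand) stood in replicate 1 at 102 CPM (CONT) and 97.9 CPM (ABL), and in replicate 2 at 139 and 59.3 CPM. The conditions did not overlap, but nearly all of the difference stood in replicate 2, where the log2 ratio was −1.23 against −0.05 in replicate 1. The fitted value was −0.73 (SE 0.27, adjusted p = 0.145).

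Il15 (chromosome 8, 82331632 to 82403222, minus strand) was the least abundant of the 7, with 148, 53, 545 and 73 UMIs in all reticular cells of the 4 libraries. For replicate 1 these gave 25.4 CPM (95% Poisson interval 21.4 to 29.8) for CONT against 17.3 (13.0 to 22.6) for ABL, and for replicate 2 they gave 20.8 (19.1 to 22.6) against 26.4 (20.7 to 33.2). The order of the conditions turned between the replicates, and the log2 fold change was −0.17 (SE 0.26, adjusted p = 0.850). Empty droplets, which hold free RNA, had Il15 at 23.6, 20.2, 23.1 and 7.68 CPM, at or near the reticular level in 3 of the 4 libraries. Neutrophils were at 15.1, 11.3, 27.9 and 15.3 CPM, above the reticular cells in CONT replicate 2. Erythroid cells, at 0.702, 1.85, 2.77 and 0 CPM, and B-lineage cells, at 3.68, 7.02, 5.21 and 0 CPM, lay below the reticular level in every library. The last value of each is a count of 0. All Poisson and binomial intervals given here cover counting error only.

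The adhesion molecule Vcam1 (chromosome 3, 116109949 to 116129688, minus strand) stood at 1579 CPM (CONT) against 756 (ABL) for replicate 1 and 1576 against 1095 CPM for replicate 2. The CONT libraries were almost equal, and both ABL libraries lay below them. The log2 fold change was −0.89 (SE 0.42) with an adjusted p of 0.329 by edgeR, and it passed with DESeq2 (adjusted p = 0.0281), 1 of the 19 alternatives. The thinned share of cells with a Vcam1 UMI was 89.8% and 71.7% in replicate 1 and 87.6% and 77.4% in replicate 2 (unthinned, 97.4%, 92.4%, 98.9% and 93.9%), against 8.87% to 19.7% of thinned hematopoietic cells.

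Fgf7, the fibroblast growth factor of the group (chromosome 2, 126034658 to 126091185, plus strand), was measured at 262 CPM (249 to 275) in the CONT library and 138 (125 to 152) in the ABL library for replicate 1, and at 319 (313 to 326) and 126 (113 to 140) CPM for replicate 2. Every ABL value lay below every CONT value, and the ABL libraries were closer to each other than the CONT libraries were. The log2 fold change was −1.23 (SE 0.29, 95% interval −1.82 to −0.63) with an adjusted p of 0.0103 by edgeR. It was lower in both replicates, with log2 ratios of −0.92 and −1.34. The call was kept in 14 of 14 alternatives that held the replicate block, with adjusted p between 0.000664 and 0.0338, and was lost without the block, where the log2 fold change was −1.23 and the adjusted p 0.9997.

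The share of reticular cells with an Fgf7 UMI gave the same order after thinning, with 37.8% (CONT) and 22.1% (ABL) for replicate 1 and 40.8% and 21.2% for replicate 2. Unthinned, these shares were 62.0%, 53.3%, 88.6% and 49.3%, at median depths of 4496, 6643, 12717 and 7492 UMIs per reticular cell. Hematopoietic cells, which should lack the gene, held an Fgf7 UMI in 2.02%, 0.795%, 2.45% and 0.163% of thinned cells and 5.96%, 3.18%, 8.90% and 0.816% of unthinned cells, at median depths of 7195, 7543, 14601 and 11104 UMIs. No cell was left out by the thinning.

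Gas6, the TAM receptor ligand (chromosome 8, 13465374 to 13494490, minus strand), was the only member with a higher fitted level in ABL. Its levels were 2278 CPM (CONT) against 2913 (ABL) for replicate 1 and 1474 against 2230 CPM for replicate 2. ABL was higher within each replicate, but ABL replicate 2 lay just below CONT replicate 1. The log2 fold change was 0.38 (SE 0.45, adjusted p = 0.789). The thinned share of reticular cells with a Gas6 UMI was 96.8% and 94.8% in replicate 1 and 87.2% and 85.2% in replicate 2 (unthinned, 95.1% to 99.1%). Of thinned hematopoietic cells, 7.06% to 16.4% held one. The reticular share was slightly lower in ABL in both replicates, the other way from the CPM levels.

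**Figure D2:**
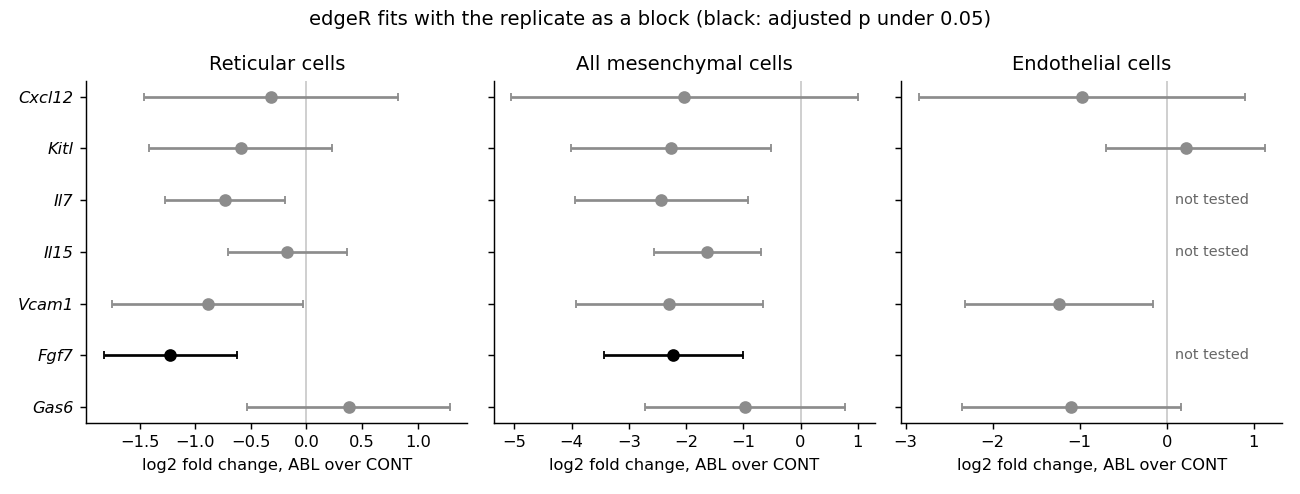
Fitted log2 fold change of ABL over CONT (horizontal axes, separate scales) with unadjusted 95% intervals for each niche factor (vertical axis) in reticular, all mesenchymal and endothelial cells. Black marks an adjusted p under 0.05, reached by Fgf7 at −1.23 (reticular) and −2.22 (all mesenchymal), and Il7, Il15 and Fgf7 were too low for a test in endothelial cells.

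Several other measures of the reticular cells moved with the condition. The 7 pre-osteoblast markers summed to 2313, 5820, 2228 and 4203 CPM, higher in ABL in both replicates, with none at 0, and 5 of the 7 rose in the fit. Of the periosteal markers, summing to 621, 859, 504 and 892 CPM, 7 were tested, all with a log2 value above 0, and Aspn, Mfap5 and Thbs2 rose. The osteoblast markers summed to 3950, 3134, 7318 and 2592 CPM, lower in ABL in both replicates. Of 7 tested, 5 had a log2 value above 0 and 2 below. The osteocalcin genes Bglap, Bglap2 and Bglap3, whose near-identical copies may share reads, rose while Phex fell. In other lists 1 gene each rose. These were the cartilage collagen gene Col2a1 (of 3 chondrocyte markers tested) and the lubricin gene Prg4 (of 3 joint-lining markers). The others were the cell cycle kinase gene Cdk1 (of 8 cycling markers) and the smooth muscle actin gene Acta2 (of 5 pericyte markers). Log2 values were below 0 for 1 chondrocyte, 1 joint-lining, 0 cycling and 3 pericyte markers. The 8 reticular markers summed to 11639, 10385, 13821 and 12298 CPM and none of the 8 passed, the largest change being in Lepr, the leptin receptor, at 1241, 696, 2186 and 606 CPM (log2 −1.44, adjusted p = 0.0594). Neutrophil markers summed to 9029, 5358, 383 and 425 CPM in the same cells, and 3 of the 7 fell (Elane, Camp and Ltf). The part of these marker genes in the fall of Fgf7 was not tested. Fgf7 also passed with free RNA subtracted and with doublets called by Scrublet removed. In empty droplets, which hold free RNA, Fgf7 was at 89.8, 57.8, 187 and 22.1 CPM, also lower in ABL in both replicates.

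The lower level of Fgf7 in ABL was seen in each reticular cluster large enough to compare. The mesenchymal cells were clustered without the niche factors. Of the reticular clusters, 12 (5 in replicate 1 and 7 in replicate 2) had at least 10 cells in both conditions. Fgf7, Vcam1 and Kitl were each lower in ABL in 12 of 12 clusters, a pattern that 1.53% of the 11405 genes showed. Cxcl12 was lower in 11 of 12, where 4.16% of the genes were lower in at least 11. Il7 was lower in 9 (15.8% of genes in at least 9) and Il15 in 8 (25.7% in at least 8). Gas6 was higher in ABL in 11 of 12 clusters, as were 7.58% of the genes in at least 11, the exception being cluster 14 of replicate 2 at 1283 CPM in CONT and 732 in ABL. Clusters of 1 library share its cells' source and are not replicates. The shares of genes are over all genes tested, which were not matched to the members by level.

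**Figure D3:**
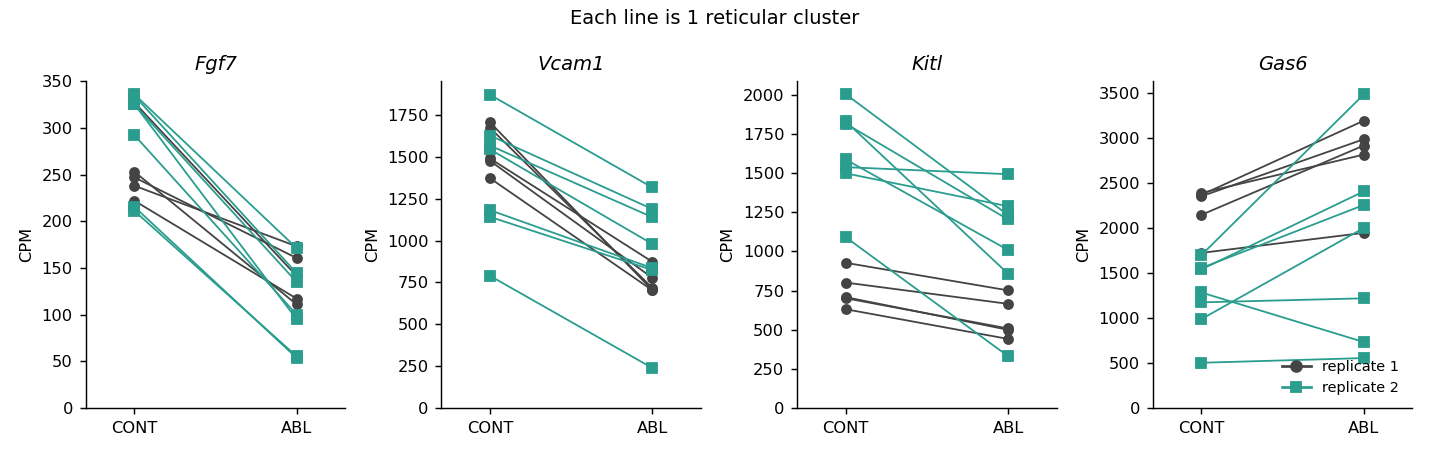
CPM of Fgf7, Vcam1, Kitl and Gas6 (vertical axes, starting at 0) in the 12 reticular clusters with at least 10 cells in CONT and in ABL, 1 line per cluster. All lines fall for Fgf7, Vcam1 and Kitl, and 11 of 12 rise for Gas6.

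The clusters differed in how much of each factor they held. From the lowest to the highest cluster, Cxcl12 varied by 1.35-fold, 1.28-fold, 2.14-fold and 6.27-fold in the 4 libraries, and Kitl by 1.47-fold, 1.70-fold, 1.84-fold and 4.51-fold. Vcam1 varied by 1.24-fold, 1.24-fold, 2.37-fold and 5.52-fold, and Fgf7 by 1.47-fold, 1.56-fold, 1.59-fold and 3.20-fold. The spans were widest in ABL replicate 2, while those of ABL and CONT in replicate 1 were close. Cluster 9 (20 cells) had the lowest Cxcl12 in ABL replicate 2, at 3054 CPM against 9218 CPM in the 84 CONT cells of the same cluster, and also the lowest Kitl (331 CPM), Vcam1 (238 CPM) and Gas6 (554 CPM). Its Spp1, the osteopontin gene, was at 4716 CPM in ABL and 61.7 CPM in CONT, and its Adipoq at 262 and 1164 CPM. The higher Spp1 was not particular to cluster 9, as every reticular cluster of replicate 2 had more Spp1 in ABL than in CONT. Cluster 5 had the most in ABL replicate 2, at 9760 CPM, with Cxcl12 at 9706 CPM.

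Of the mesenchymal and endothelial classes with at least 10 cells, reticular cells held the highest level in 27 of 28 combinations of member and library. Among these classes, all members but Fgf7 were highest there in every library, as were 2.91% of the genes tested. Some of these leads were small or rested on few counts. In ABL replicate 1 the next level of Il15 was 14.5 CPM in endothelial cells, from 1 UMI. Classes with no UMI were ranked at 0 CPM. For Il15, 3 counts would have given 43.6 CPM in the 11 periosteal cells of ABL replicate 1. The same would have given 40.5 CPM in the 11 joint-lining cells of CONT replicate 2, both above the reticular level. By the thinned share of cells with a UMI, Il7 was highest in pre-osteoblasts of CONT replicate 1, endothelial cells of ABL replicate 1 and periosteal cells of CONT replicate 2. These leads rested on 8 of 42, 2 of 11 and 9 of 40 cells. The shares were 19.0%, 18.2% and 22.5%, against 17.7%, 17.4% and 21.8% in reticular cells of the same libraries. By the same measure, Il15 was highest in endothelial cells of CONT replicate 2, from 2 of 25 cells. With the study's cell filter alone, Il15 was highest in pericytes in both ABL libraries, a class not found in the main clustering. Hematopoietic cells stand outside this count, and in CONT replicate 2 Il15 was at 27.9 CPM in 152 neutrophils and 39.6 CPM in 18 monocytes, above the 20.8 CPM of the reticular cells. Levels between classes of the same libraries are given as a description, in CPM of UMIs that tag each transcript once at its 3′ end.

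**Figure D4:**
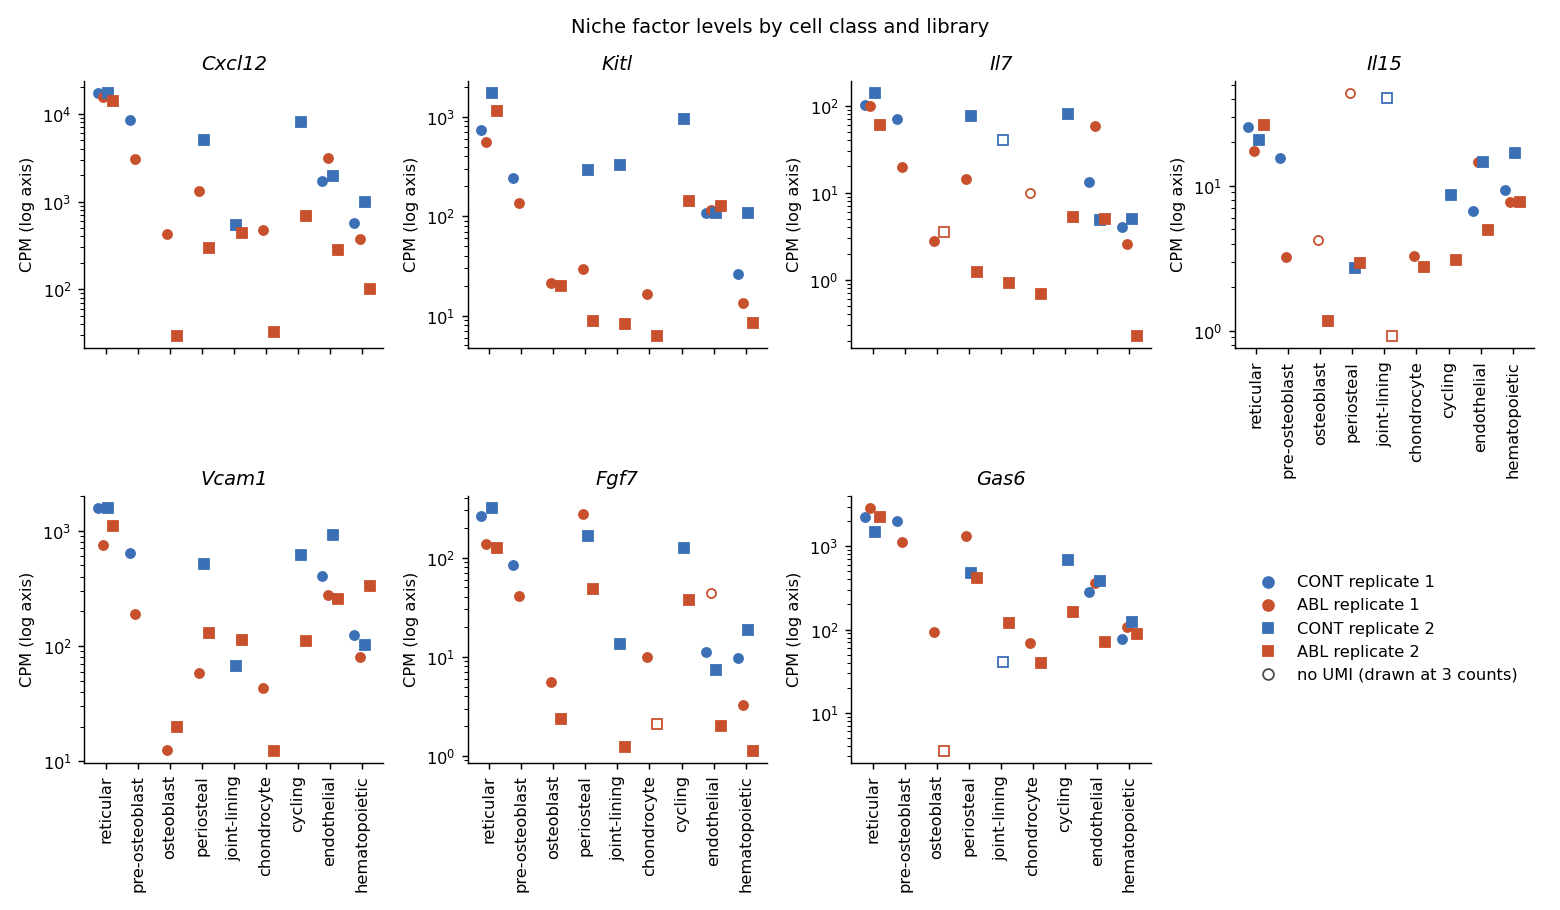
CPM of each niche factor (log axes) by cell class, with 1 point per library for classes of at least 10 cells and open points at 3 counts where no UMI was found. Hematopoietic cells are pooled as 1 class and mesenchymal cells of no class are left out. Of the filled points, reticular cells stand highest except for Fgf7 in ABL replicate 1, where 11 periosteal cells are at 276 CPM. For Il15, open points of periosteal cells in ABL replicate 1 (43.6 CPM) and joint-lining cells in CONT replicate 2 (40.5 CPM) lie above the reticular points.

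Cxcl12 in CONT followed the order reticular, pre-osteoblast (8613 CPM in 42 cells of replicate 1), cycling, periosteal, endothelial and joint-lining, leaving out cells of no class, with no overlap between neighbours, though most of these classes were measured in 1 CONT library. The cycling (27 cells, Cxcl12 8181 CPM) and periosteal (40 cells, 4982 CPM) classes of CONT replicate 2 also held the reticular marker Lepr, at 745 and 1875 CPM. The reticular marker Adipoq was at 682 CPM in the cycling but only 76.7 CPM in the periosteal class, against 1892 CPM in reticular cells of that library. In ABL, pre-osteoblasts were at 3083 CPM in replicate 1, periosteal cells at 1323 and 299 CPM, and osteoblasts at 432 and 29.3 CPM. From pre-osteoblasts through endothelial and periosteal to cycling cells (689 CPM in 1 library), neighbours in the ABL order overlapped and were not separated beyond their spread.

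Kitl in ABL ranged from 558 and 1154 CPM in reticular cells over 135 CPM in pre-osteoblasts of replicate 1 to 21.03 and 19.9 CPM in osteoblasts and 16.5 and 6.22 CPM in chondrocytes. The periosteal range of Kitl (8.75 to 29.1 CPM) overlapped those of osteoblasts and of chondrocytes, which did not overlap each other. Il7 was at 69.6 CPM in CONT and 19.5 CPM in ABL pre-osteoblasts of replicate 1 and at 2.80 CPM in osteoblasts of ABL replicate 1, with no Il7 UMI in osteoblasts of ABL replicate 2. Vcam1 went from 642 CPM in CONT pre-osteoblasts to 190 CPM in ABL pre-osteoblasts of replicate 1, and lay at 12.6 and 19.9 CPM in ABL osteoblasts. These pre-osteoblast levels lay below the reticular level of their own library. The reticular markers Adipoq and Lepr were also lower in ABL pre-osteoblasts of replicate 1. Adipoq was at 715 CPM in CONT and 122 CPM in ABL, and Lepr at 425 and 166 CPM. Their part in the pre-osteoblast levels of the niche factors, Cxcl12 and Gas6 included, was not tested.

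Gas6 was at 2030 CPM in CONT pre-osteoblasts of replicate 1, within the range of the reticular cells of the CONT libraries (1474 to 2278 CPM), and at 1121 CPM in ABL pre-osteoblasts. In periosteal cells it was at 1338 CPM in ABL replicate 1 (11 cells), 480 in CONT replicate 2 and 413 in ABL replicate 2. Fgf7 in periosteal cells was at 276 CPM in ABL replicate 1, from 19 UMIs, at 164 CPM in CONT replicate 2 and at 48.5 CPM in ABL replicate 2, where the class had 581 cells. In ABL the periosteal and reticular ranges of Fgf7 overlapped.

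Over all mesenchymal cells the log2 ratios of all 7 factors were below 0 in both replicates. Fgf7 went from 232 CPM (CONT) to 88.6 (ABL) in replicate 1, and from 310 to 39.2 CPM in replicate 2. Both ABL libraries lay below both CONT libraries, with a log2 fold change of −2.22 (SE 0.57, adjusted p = 0.0494 by edgeR). It was the only member called, beside 386 of 13702 genes (2.82%), of which 274 were higher (2%) and 112 lower (0.817%) in ABL. The median was −2.22 over the 7 members and −0.06 over all genes. The call of Fgf7 was lost with RLE size factors (adjusted p = 0.0892), with free RNA subtracted (0.0507), in cells with a tdTomato UMI alone (0.0953) and with no replicate block (0.4994).

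None of the other 6 passed with edgeR, 4 of them at an unadjusted p under 0.05, and DESeq2 called 5 of the 7. Of all genes, 2124 of 13702 had an unadjusted p under 0.05 with edgeR, and DESeq2 called 593 of 14245. Cxcl12 was at 15276 and 9002 CPM in replicate 1 and at 16611 and 1774 CPM in replicate 2 (log2 −2.03, SE 1.43, adjusted p = 0.572). Kitl was at 647, 329, 1662 and 149 CPM (log2 −2.26, adjusted p = 0.167). The conditions did not overlap for either gene, and the difference was several times larger in replicate 2.

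For the rest, the log2 fold changes over all mesenchymal cells were −2.43 for Il7 (adjusted p = 0.0807), −1.63 for Il15 (0.0594), −2.29 for Vcam1 (0.131) and −0.96 for Gas6 (0.669). The Gas6 levels were 2066, 1790, 1424 and 453 CPM, with ABL replicate 1 above CONT replicate 2.

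The share of reticular cells among mesenchymal cells moved with the condition, from 88.4% (CONT) to 59.8% (ABL) for replicate 1 and 96.1% to 19.1% for replicate 2, or 84.2%, 51.2%, 94.95% and 10.8% of mesenchymal UMIs. When the ABL level was recomputed at the reticular share of UMIs of its CONT library, keeping the levels measured in reticular and in other ABL cells, Cxcl12 was 1.14-fold lower in place of 1.70-fold in replicate 1 and 1.25-fold in place of 9.36-fold in replicate 2. For Kitl the same values were 1.34-fold in place of 1.97-fold and 1.51-fold in place of 11.2-fold. Fgf7 remained 1.89-fold and 2.55-fold lower, in place of 2.62-fold and 7.89-fold. Vcam1 remained 2.14-fold and 1.45-fold lower, in place of 3.07-fold and 7.45-fold. Il7 was 1.07-fold and 2.40-fold lower, in place of 1.59-fold and 17.5-fold. Il15 was 1.54-fold lower in place of 2.29-fold in replicate 1. In replicate 2 it became higher in ABL, in place of 3.93-fold lower. Gas6 became higher in ABL than in CONT in both replicates.

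**Figure D5:**
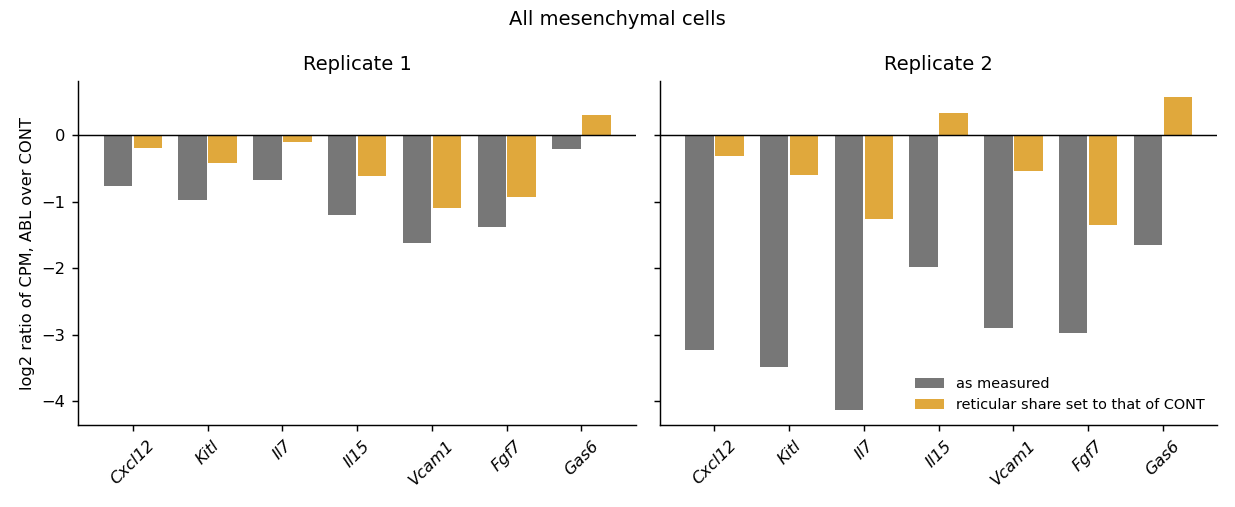
Log2 ratio of CPM over all mesenchymal cells, ABL over CONT, for each niche factor in replicates 1 and 2, as measured (grey) and with the share of UMIs from reticular cells set to that of the CONT library (yellow). At the CONT share, the values of Cxcl12 in replicate 2 go from 9.36-fold to 1.25-fold lower, and those of Fgf7 from 7.89-fold to 2.55-fold lower.

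Which cells supplied the transcripts also changed between the conditions. Reticular cells gave 98.4% (CONT) and 85.4% (ABL) of the mesenchymal Cxcl12 UMIs of replicate 2, and 94.97% and 88.1% of those of replicate 1. For Fgf7 the share fell from 97.9% to 34.7% in replicate 2 and from 95.2% to 80% in replicate 1. Gas6 went from 98.3% to 53.1% in replicate 2. In ABL replicate 2, then, 656 of the 1005 mesenchymal Fgf7 UMIs came from cells outside the reticular class. The periosteal class alone held 432 of these 656.

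Endothelial cells are the vascular part of the niche. Those in the tdTomato+ sort held tdTomato at 1846, 1684, 1175 and 1979 CPM. The study reports tdTomato in a small number of endothelial cells, and how far these represent all marrow endothelium was not tested. In them, none of the 4 members tested passed with edgeR (1, Vcam1, at an unadjusted p under 0.05) or with DESeq2. With edgeR, 4 of 5815 genes (0.0688%) passed, of which 3 were higher (0.0516%) and 1 lower (0.0172%). Of the 5815 genes, 375 had an unadjusted p under 0.05. The 10 endothelial markers summed to 7355, 5820, 8794 and 6803 CPM. With 11 cells in ABL replicate 1, only large differences were detectable. Cxcl12 levels were 1734, 3121, 1940 and 278 CPM, so the order turned between the replicates (log2 −0.98, SE 0.87, adjusted p = 0.854). The 8 reticular markers in the same endothelial cells summed to 1483, 1568, 1366 and 331 CPM, lowest in the same library as Cxcl12. Their part in the Cxcl12 level was not tested.

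Kitl was even across the endothelial libraries, at 108, 116, 108 and 128 CPM from 48, 8, 44 and 128 UMIs, and the log2 fold change was 0.22 (SE 0.43, adjusted p = 0.943). The 95% interval, from −0.70 to 1.13, did not bound a change tightly. In endothelial cells there were 6.20, 3.72, 5.56 and 45.9 Kitl UMIs per 100 Cxcl12 UMIs, against 4.77, 3.94, 7.93 and 8.57 in empty droplets of the same libraries. The ratio stood well above that of the empty droplets in ABL replicate 2.

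Vcam1 in endothelial cells was at 408, 276, 908 and 255 CPM, lower in ABL in both replicates without overlap of the conditions (log2 −1.24, SE 0.50, adjusted p = 0.706). Per 100 Cxcl12 UMIs there were 23.5, 8.84, 46.8 and 91.8 Vcam1 UMIs in endothelial cells and 10.4, 5.998, 8.79 and 11.7 in empty droplets, so the ratio was above that of the empty droplets in all 4 libraries, by little in ABL replicate 1. Gas6 was at 282, 363, 378 and 70.8 CPM (log2 −1.09, SE 0.58, adjusted p = 0.794). Among the other adhesion molecules, the selectins Selp and Sele, which capture rolling leukocytes, had values of −1.65 (adjusted p = 0.546) and −1.91 (adjusted p = 0.407).

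Cxcl12 in empty droplets was at 5311, 5467, 11010 and 1946 CPM, and in hematopoietic cells at 566, 370, 987 and 101 CPM. Both were lowest in ABL replicate 2. Neutrophils of CONT replicate 2 were higher, with Cxcl12 at 1435 CPM and 432 Kitl UMIs in 32 of 152 cells. Whether these UMIs came from free RNA, from mixed droplets or from misplaced cells was not tested. Marker genes of neutrophils and erythroid cells gave an estimated share of free RNA of 12.8%, 13.5%, 1.65% and 8.06% of mesenchymal UMIs. Reticular cells were above hematopoietic cells by 17.4-fold to 139-fold for Cxcl12 and by 16.1-fold to 136-fold for Kitl. Vcam1 in hematopoietic cells of ABL replicate 2 was at 332 CPM, above the 229 CPM of its empty droplets.

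The receptors of these factors were measured in the same libraries. Il7r, the IL-7 receptor chain, was at 151, 148, 252 and 109 CPM in B-lineage cells and at 238 CPM in the 45 T or NK cells of ABL replicate 2, and between 0.0763 and 0.857 CPM in reticular cells. Cxcr4, the CXCL12 receptor, lay between 98.3 and 138 CPM in neutrophils and between 91.0 and 212 CPM in B-lineage cells. Itga4, the α4 chain that pairs to bind VCAM-1, reached 317 CPM in monocytes of CONT replicate 2.

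Axl, a GAS6 receptor, was measured in monocytes at 113, 28.2, 112 and 96.6 CPM. Fgfr2 was at 131, 213, 249 and 203 CPM in reticular cells themselves, and 3′ counts do not separate its splice forms. Of the 14 receptor genes, 10 could be tested in reticular cells and 0 passed with edgeR (1 at an unadjusted p under 0.05) or DESeq2, with a median log2 fold change of −0.09. Over all mesenchymal cells, 13 were tested and Ackr3, the CXCL12 scavenging receptor, rose (2.89 and 13.0 CPM in replicate 1, 0.83 and 182 CPM in replicate 2, log2 5.07, adjusted p = 0.0210), which DESeq2 did not call.

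Of 25 other marrow niche factors, 20 were tested in reticular cells, and 1 rose and 3 fell with edgeR, with a median of −0.27, beside 1.82% higher and 1.64% lower of all genes tested. DESeq2 called 1 of the 20, Il6 (adjusted p = 5.48e-06), and lost the calls of Ptn (0.871), Bmp6 (0.504) and Wnt5a (0.466). Il6, the cytokine interleukin 6, was at 92.5, 24.5, 137 and 49.9 CPM, lower in ABL without overlap (log2 −1.77, adjusted p = 1.15e-05). Ptn, which encodes pleiotrophin, went from 795 to 568 CPM and from 494 to 109 CPM (log2 −1.42, adjusted p = 0.0372). The BMP ligand gene Bmp6 was at 5.31, 4.24, 43.0 and 12.3 CPM (log2 −1.40, adjusted p = 0.0094), and the Wnt ligand gene Wnt5a rose from 5.996 to 11.4 CPM and from 6.60 to 25.0 CPM (log2 1.41, adjusted p = 0.0078).

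Angpt1, a vascular and stem cell ligand, and Csf1, the macrophage growth factor, did not pass (log2 0.28 and 0.06). Of the 4 adhesion molecules in the list only Icam1 was high enough to test in reticular cells, and it fell, with levels of 110, 47.0, 70.6 and 32.9 CPM (log2 −1.26, adjusted p = 0.00066). Of 7 regulators and processing enzymes, 6 were tested and 0 passed with edgeR (2 at an unadjusted p under 0.05) or DESeq2, with a median of −0.01. Ebf1 and Foxc1, transcription factors known to maintain niche factor expression in reticular cells, had values of −0.01 (adjusted p = 0.996) and −0.54 (adjusted p = 0.509).

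Over 21 units of 1 class in 1 library (8 classes, at least 10 cells each), the profile of Cxcl12 was most like those of Fbln5 (Pearson r = 0.95), Samhd1 (0.94) and Kng2 (0.93), among 6959 genes. These units share libraries, depth and free RNA, so the values describe likeness and are given with no test. Fgf7 was most like Svep1, Ptgfr and C1s1 (all 0.94), Vcam1 like Ier5, Fmo1 and Enpp4 (all 0.92) and Kitl like Rai14 (0.92), Negr1 and Pik3r1 (both 0.90). Gas6 was most like Cd302, Ggt5 and Igfbp4 (all 0.93), Il7 like Kng2 (0.94), Shroom3 and Kng1 (both 0.92), and Il15 like Trf, Esm1 and Shroom3 (all 0.90). Between members, r was highest for Cxcl12 with Il7 (0.90) and lowest for Il15 with Fgf7 (0.45).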

How the data were processed

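Single cell RNA-seq of tdTomato+ femoral cells was measured in 4 libraries (CONT and ABL in 2 replicates). The deposited values are raw UMI counts per feature and barcode, which the authors made with Cell Ranger against mm10 with transgene sequences added; the counting version is not given in the sources used here. No cell calling or normalization had been applied, and the depth per library was 22889380 to 44784072 UMIs.

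Cell calling followed the gene and mitochondrial limits of the study's methods (v2, 500 genes and 20%; v3, 1000 genes and 15%) and added a UMI floor, 1/10 of the UMI count at percentile 99 of the 3000 largest barcodes. The study's filter alone left 4809, 1768, 2478 and 2720 barcodes of 737280 (v2) and 6794880 (v3), and the floor 3433, 1459, 2404 and 2537. Droplets with at most 300 UMIs gave the profile of free RNA. The cells of each library were first clustered with only the transgenes left out, and marker lists divided them into mesenchymal, endothelial and hematopoietic cells. The niche factors could take part in that first clustering. Mesenchymal cells of each replicate were integrated and clustered in Seurat 5.3.0 (R 4.3.3; 2000 variable genes, 30 principal components, 20 neighbours, resolution 0.8) without the members, listed genes and markers. Clusters were named by their best marker list (at least 3 markers detected in 10% of cells, score at least 0.25). The scoring rule was set after the data were seen. Doublets were not removed; Scrublet called 77, 7, 2 and 15.

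Classes with at least 10 cells in every library (reticular, endothelial) and all mesenchymal cells were summed per library and tested in edgeR 4.0.16 (TMM, filter on low counts, quasi-likelihood F test, Benjamini-Hochberg over all genes, threshold 0.05). The replicate was a block, as the contralateral femur was the study's control, leaving 1 residual degree of freedom. Deviations of same-numbered libraries from their condition means correlated across genes (r = 0.70 in reticular, 0.43 in all mesenchymal and 0.38 in endothelial cells), which includes the shared chemistry. Xist, a transcript of female cells, was found in 49.9%, 81.4%, 71.9% and 0.0553% of mesenchymal cells. In replicate 2, sex and condition therefore cannot be told apart, and its libraries do not look like paired femurs of the same mice. The Xist shares of replicate 1 also differed, at median depths of 4620 (CONT) and 7163 (ABL) UMIs per mesenchymal cell, and a difference in its mix of sexes was not tested. Values are given per replicate too. An exact permutation test of single values cannot give a two-sided p under 0.333, so none was run. The fits were tested on simulated data. Poisson and binomial intervals are exact at 95%, and shares were taken after thinning to 2000 UMIs. Standard errors of the edgeR fold changes were derived from the F statistic of each gene, and their 95% intervals from a t quantile. Gene positions are from GENCODE M21 on GRCm38. Likeness used log2(CPM + 10) and genes reaching 50 CPM.

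The genes named are the 7 members, fixed lists of receptors, other niche factors, adhesion molecules, regulators and markers, and the 3 genes most like each member. Members and lists were chosen with earlier results of these data known. The alternatives were the study's filter alone, a stricter filter (1000 genes, 10%), Scrublet (scanpy 1.11.5), cells with a tdTomato UMI, no or joint integration, resolutions 0.4 and 1.5, all variable genes, no block, DESeq2 1.42.0, RLE, library totals, no filter on low counts, free RNA subtracted, and libraries left out.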

Additional observations from a re-analysis of the deposited data

Results flagged for a closer look

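The log2 ratios of Kitl, the stem cell factor gene, had opposite signs in reticular and in endothelial cells, and Kitl passed the test in neither (edgeR, adjusted p = 0.574 and 0.943). Its log2 ratio of CPM, ABL over CONT, was −0.4101 in replicate 1 and −0.5793 in replicate 2 of the reticular cells, and 0.1107 and 0.2417 in the endothelial cells. The difference between the cell classes was not tested. The endothelial value of ABL replicate 1 rests on 8 UMIs in 11 cells.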

How the results depend on the processing

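With 2 libraries per condition and 1 residual degree of freedom, the calls depended on the replicate block and on which libraries were included. Fitted on all 4 libraries with no replicate block, reticular cells gave 0 calls (346 at an unadjusted p under 0.05). All mesenchymal cells gave 0 (1200) and endothelial cells 0 (85), and 0 members passed in any of them. The numbers pair the libraries by chemistry, and within each replicate Fgf7 was lower in ABL in reticular cells.

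In reticular cells DESeq2 called 169 genes and 2 members (Fgf7 and Vcam1), and leaving out 1 library with no block gave 0 to 65 genes (41 without CONT replicate 1 and 65 without ABL replicate 1) and 0 members. Scaling by library totals gave 384 of 580 calls higher in ABL, against 208 of 395. Genes with an adjusted p numbered 12656 with DESeq2 and 11405 in the main fit.

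In all mesenchymal cells the calls were 724 of 13837 genes with the study's filter (3 members) and 690 of 13641 with the stricter filter (3 members). Cells with a tdTomato UMI gave 154 of 13638 (0 members), DESeq2 593 of 14245 (5) and RLE 212 of 13702 (0). With no filter on low counts there were 1104 of 19552 (3 members), and with doublets removed 504 of 13667 (2). Leaving out 1 library gave 0 to 469 genes and 0 to 1 members. Without CONT replicate 1 or CONT replicate 2 there were 0 calls (1721 and 268 at an unadjusted p under 0.05), and 26 without ABL replicate 2.

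In endothelial cells the calls were 0 with the study's (268 unadjusted) and with the stricter filter (282), 7 with DESeq2, 26 with library totals (16 higher) and 42 with no filter on low counts. Leaving out 1 library gave 87 without CONT replicate 1, 41 without ABL replicate 1, 24 without CONT replicate 2 and 2 without ABL replicate 2, and no alternative called a member.

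The log2 fold change changed sign for Kitl in reticular cells without CONT replicate 2 (0.12). For Il15 in reticular cells it was 0.34 without replicate 1, 0.15 without ABL replicate 1 and −0.55 without replicate 2. For Cxcl12 in endothelial cells it was −2.80 without replicate 1, 0.85 without replicate 2 and 0.70 without ABL replicate 2. For Gas6 in endothelial cells it was −2.42 without replicate 1, 0.36 without replicate 2 and 0.0729 without ABL replicate 2. The log2 ratio of Gas6 in reticular cells was −0.0315 as a thinned share of cells. Reticular cells were highest in 23 of 28 combinations by thinned share and 26 with the study's filter. The cause of these changes was not tested.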
